A study of Homo sapiens with 9 samples.

Results

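The genes described are those of the unfolded protein response and of protein folding in the endoplasmic reticulum (ER). They were 36 genes chosen by symbol for their known roles, with earlier results of these data already known. Of the 36, 33 had a probe set that the platform annotation assigned to a single gene, of 11963 such genes in all. DNAJB11 and SYVN1 had no probe set under their symbols in the table used here, and PDIA5 had only a probe set shared with other symbols, so these 3 genes were not analysed. No filter on low values was applied. Each gene was read at 1 probe set, chosen for its high mean level across lines.

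The study set plasma cell myeloma (PCM) lines against B-cell lymphoma lines on Affymetrix GeneChip arrays, a short-oligonucleotide platform that measures RNA from a bulk culture. The B-cell lines, all untreated and with 2 arrays each, were SU-DHL4 and SU-DHL6, from large B-cell lymphomas, and Namalwa, from a Burkitt tumour. The PCM lines were L363, U266 and LP1 with 1 array each, and their labels name no treatment. All 6 lines grew in RPMI medium with fetal bovine serum. The Namalwa arrays came from an earlier data set of the same group, as the series' design text states. Each line is a single established tumour line, and it models neither normal B cells nor normal plasma cells. In bulk RNA, fewer cells that use a gene and less of its RNA per cell cannot be told apart.

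Proteins that enter the ER fold there with the help of chaperones, disulfide isomerases, lectins and prolyl isomerases. When unfolded proteins build up, 3 sensors in the ER membrane respond: PERK slows translation and raises ATF4, ATF6 is cut to release a transcription factor, and IRE1 splices the XBP1 messenger into the form that encodes an active factor. Chains that fail to fold are drawn out of the ER and degraded, a route called ER-associated degradation (ERAD). Antibody-secreting plasma cells carry a large ER, and XBP1 is known to be needed for their secretory programme.

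Some properties of the arrays bear on every value below. L363 and U266 were nearly alike: the SD of their difference over all probe sets was 0.32 on the log2 scale, within the 0.22 to 0.35 seen between duplicate arrays of 1 line, while each differed from LP1 with an SD of 0.55. The duplicates of SU-DHL6 stood furthest apart of the 3 pairs. Of the B-cell markers, 4 of 5 were measured and all 4 passed the test as lower in PCM lines, and 3 of 5 plasma cell markers passed as higher (SDC1, PRDM1 and IRF4). With L363 and U266 averaged as 1 line, all 4 B-cell markers still passed, while SDC1, PRDM1 and IRF4 did not (adjusted p 0.117, 0.0880 and 0.117); each of these 3 passed in 1 of 6 tests that left out a line. Of the markers of T and NK cells (5 of 5 measured), myeloid cells (4 of 5) and epithelial or stromal cells (5 of 5), none passed in either direction. Their summed log2 levels ran from 33.1 to 33.7 on B-cell arrays and 33.3 to 35.0 on PCM arrays for T and NK cells. They ran from 22.5 to 23.3 and 23.3 to 23.7 for myeloid cells, and from 31.6 to 32.8 and 32.3 to 33.0 for epithelial or stromal cells. RMA gives no detection call, so which markers were at background is not known here.

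The promoters of several of these genes carry the sequence through which the response is known to act. The ER stress response element (ERSE) joins a CCAAT box, bound by NF-Y, to a CCACG part bound by ATF6 or XBP1, and it was first defined in promoters such as those of HSPA5, HSP90B1 and CALR. RefSeq promoter windows on GRCh38.p14, from 250 bases before to 50 bases after the start, were matched for 31 of the 33 genes and searched for exact matches on both strands. A gene with several starts counted once if any of its windows held a match. The ERSE consensus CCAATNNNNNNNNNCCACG stood in 6 of them (19.4%), against 14 of 9562 genes with a promoter (0.146%). The ERSE-II consensus ATTGGNCCACG stood in 3 (9.68%), against 14 of 9562 genes (0.146%). The 9562 genes include the 31. Because the ERSE was first defined in some of these same promoters, its share among the 31 is no independent test. The matches are printed because the elements are known from ER folding genes; capitals mark the match, and each line reads along the strand that carries CCAAT or ATTGG.
HSPA5, chr9:125241381-125241419, minus strand: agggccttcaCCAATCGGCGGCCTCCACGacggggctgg
HSP90B1, chr12:103930206-103930244, plus strand: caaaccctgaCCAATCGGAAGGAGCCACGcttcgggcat
HSP90B1, chr12:103930311-103930349, minus strand: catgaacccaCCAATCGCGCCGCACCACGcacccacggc
CALR, chr19:12938374-12938412, minus strand: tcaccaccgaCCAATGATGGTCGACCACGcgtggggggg
CANX, chr5:179698768-179698806, plus strand: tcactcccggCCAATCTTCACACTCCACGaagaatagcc
CRELD2, chr22:49918544-49918582, minus strand: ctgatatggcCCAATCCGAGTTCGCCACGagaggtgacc
PDIA6, chr2:10812843-10812881, minus strand: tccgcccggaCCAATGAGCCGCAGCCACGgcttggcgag
HERPUD1 (ERSE-II), chr16:56932011-56932049, plus strand: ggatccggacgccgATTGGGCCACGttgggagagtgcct
HYOU1 (ERSE-II), chr11:119057260-119057298, plus strand: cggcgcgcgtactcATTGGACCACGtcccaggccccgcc
HYOU1 (ERSE-II), chr11:119057366-119057404, plus strand: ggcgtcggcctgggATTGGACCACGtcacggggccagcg
SDF2L1 (ERSE-II), chr22:21642100-21642138, minus strand: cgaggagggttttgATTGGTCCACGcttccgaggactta

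The 250 bases before the start of HSPA5, the gene of the ER chaperone BiP, show the element in its setting. They lie at chr9:125241344-125241593 on the minus strand, and the capitals again mark the exact match.
HSPA5 upstream: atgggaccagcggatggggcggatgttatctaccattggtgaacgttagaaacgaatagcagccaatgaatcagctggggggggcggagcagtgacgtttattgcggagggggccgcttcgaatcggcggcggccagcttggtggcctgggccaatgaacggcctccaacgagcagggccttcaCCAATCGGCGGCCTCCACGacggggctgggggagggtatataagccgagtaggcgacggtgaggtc

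HSPA5 carried its match at positions -66 to -48 from the start, and HSP90B1 carried 1 match at -194 to -176 and another at -89 to -71. The XBP1-type element TGACGTGG (UPRE) was found in the HYOU1 and VCP windows (6.45% of the 31 genes), against 122 of 9562 genes (1.28%), and in HYOU1 it overlapped the upstream ERSE-II match. The ATF4-type element TGATGNAAT (CARE) was found in the windows of 0 of the 31 genes, against 79 of 9562 genes (0.826%), which says only that these letters are not in these windows. The map of the matches places them by distance from the start.

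**Figure D1:**
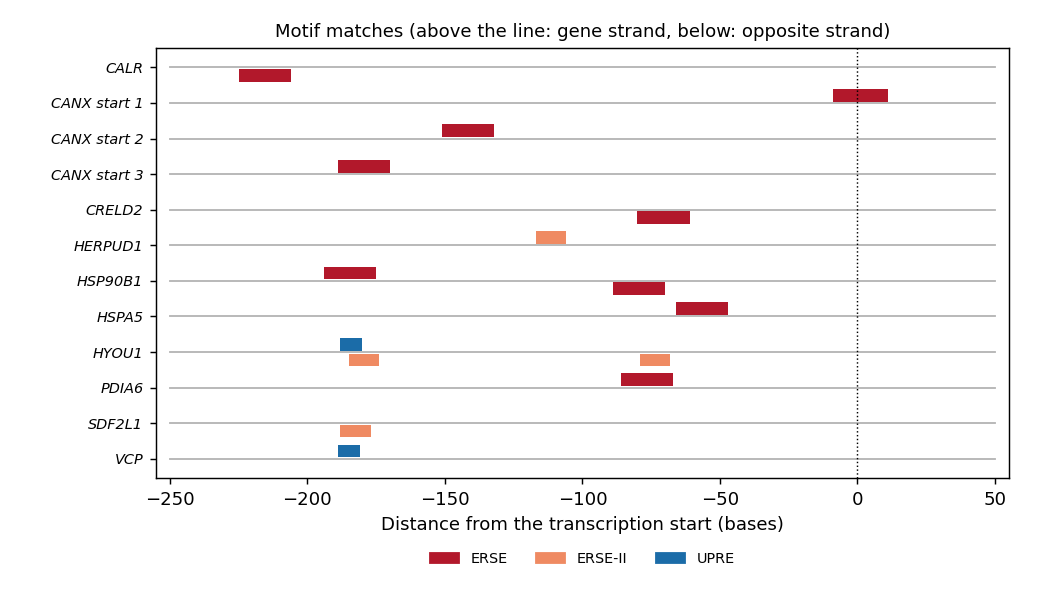
Exact matches of ERSE, ERSE-II and UPRE in the RefSeq promoter windows of the genes that hold one; the x axis is the distance from the annotated start in bases and each row is a gene window. The HSPA5 match lies at -66 to -48, and HYOU1 and HSP90B1 each hold more than 1 match.

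The first comparison asked how PCM lines differed from B-cell lines. The PCM lines had more RNA of several ER folding genes among the 33: 6 of the 33 passed the test as higher, all of them folding factors. As lower, 0 passed. The 6 were HYOU1 and SIL1, which serve BiP, and PDIA6, P4HB, ERO1A and ERP29, listed here in the disulfide formation group. Their differences ran from 1.41-fold to 2.27-fold. Over all genes, 162 of 11963 passed as higher (1.35%) and 233 passed as lower (1.95%). The test was limma on line means, 3 lines against 3, with Benjamini-Hochberg adjustment over all 22215 probe sets and a threshold of 0.05. An exact permutation test of 3 lines against 3 cannot go below 0.1 for a single gene.

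All 3 PCM lines lay above all 3 B-cell lines for 21 of the 33 genes (63.6%), against 17.5% of all genes. They lay below all B-cell lines for 1 gene, ATF4 (3.03%), against 11.8% of all genes, and the groups overlapped for the other 11. Taken array by array, all 3 PCM arrays stood above all 6 B-cell arrays for 16 genes (48.5%, against 9.68% of all genes). The median difference over the 33 genes was 0.74 on the log2 scale, beside 0.05 over all genes, and 28 of the 33 differences were positive, as were 7168 of 11963 over all genes. At an unadjusted p under 0.05, 19 genes were higher and 1 was lower, against 10.6% and 11% of all genes.

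**Figure D2:**
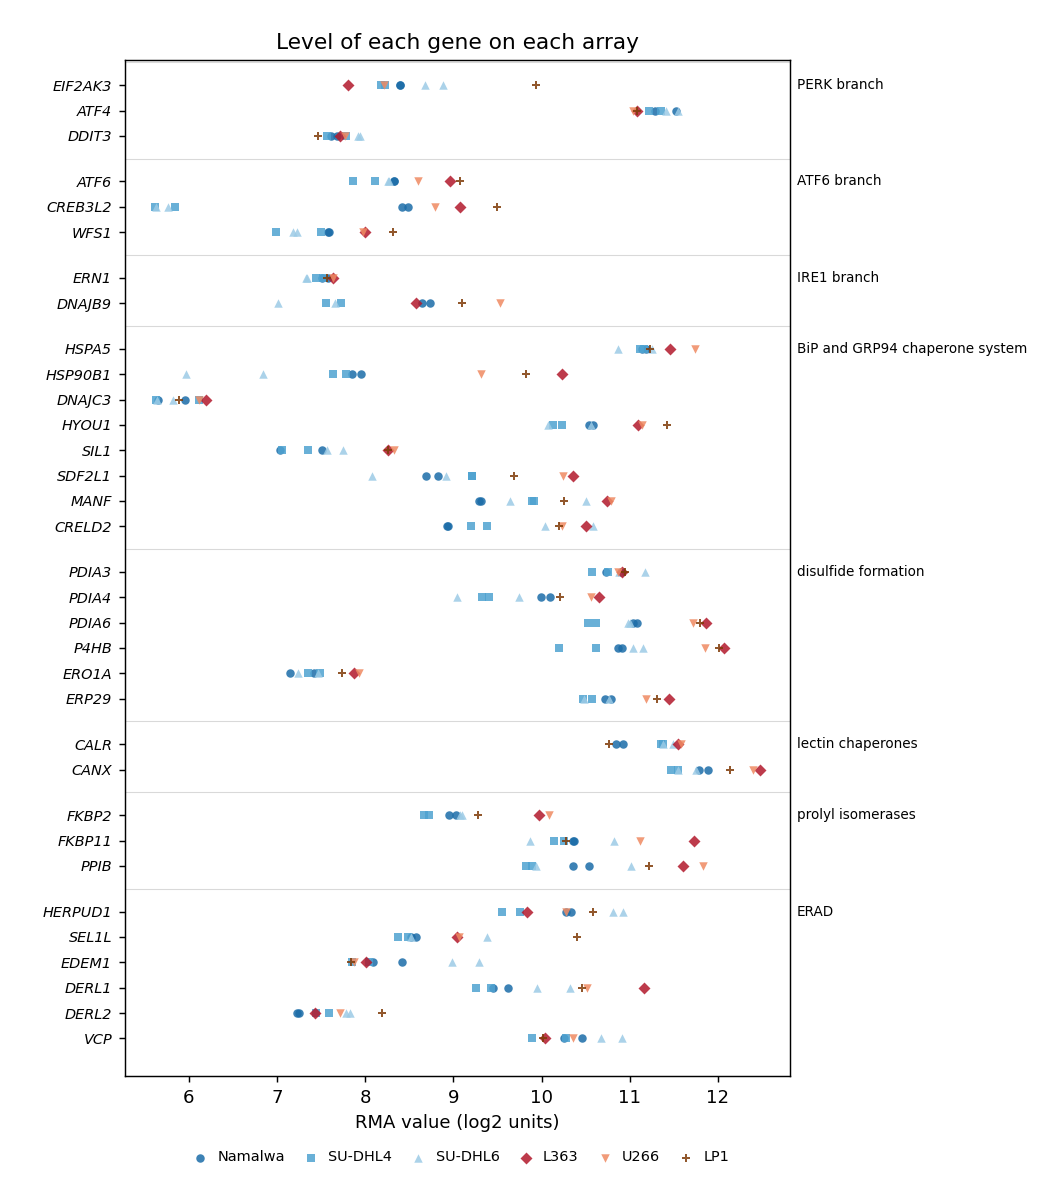
RMA log2 level of each of the 33 genes on each of the 9 arrays, with genes grouped by branch and arrays by line. Levels are to be read along a gene, not between genes; the PCM arrays stand above all B-cell arrays for 16 genes.

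The 6 calls depended on which lines were in the test. With L363 and U266 averaged as 1 line, 0 of the 33 genes passed, and the adjusted p-values of the 6 ran from 0.0804 (ERP29) to 0.132 (ERO1A). The count was 0 without L363, without U266 or without SU-DHL4. It was 1 without SU-DHL6 (SIL1, adjusted p 0.0253) and 1 without Namalwa (CREB3L2, adjusted p 0.0149). Without LP1 the count was 5, these being ERO1A, SDF2L1, CANX, FKBP2 and PPIB. The median difference over the 33 genes stayed between 0.65 and 0.76 whichever line was left out.

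Among the genes around BiP, the main ER chaperone, and GRP94, its partner of the HSP90 family, all 8 measured genes were higher on average in PCM lines. Of the 8, 2 passed the test and 7 had PCM lines above every B-cell line, against 1.35% and 17.5% of all genes. The median difference was 0.85. HYOU1, a large HSP70-type chaperone that exchanges the nucleotide of BiP, measured 10.58 and 10.54 on the Namalwa arrays, 10.23 and 10.13 in SU-DHL4 and 10.56 and 10.08 in SU-DHL6. In L363, U266 and LP1 it measured 11.09, 11.14 and 11.42. All PCM arrays were above all B-cell arrays. HYOU1, with its paired ERSE-II matches, was 1.82-fold higher, a log2 difference of 0.86 (SE 0.14, adjusted p 0.0444).

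SIL1, the other nucleotide exchange factor of BiP, measured 7.04 and 7.51 in Namalwa, 7.35 and 7.06 in SU-DHL4, 7.75 and 7.57 in SU-DHL6, and 8.26, 8.33 and 8.26 in L363, U266 and LP1. The PCM arrays were tightly grouped and all above the B-cell arrays. The difference of SIL1 was 0.90 (SE 0.14, adjusted p 0.0380), or 1.87-fold. Without each line in turn, the adjusted p ran from 0.0577 to 0.137 for HYOU1 and from 0.0253 to 0.132 for SIL1.

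HSPA5, which encodes BiP and holds the ERSE printed above, differed little beside these cofactors. HSPA5 measured 11.18 and 11.14 in Namalwa, 11.16 and 11.11 in SU-DHL4, 11.26 and 10.87 in SU-DHL6, and 11.46, 11.74 and 11.22 in L363, U266 and LP1. By line the PCM values were the higher, but the LP1 array lay below array 1 of SU-DHL6. The difference was 0.35 (SE 0.14) and did not pass (adjusted p 0.249); it was 0.22 without U266. HSP90B1, which encodes GRP94, had the widest gap of the chaperones: 7.96 and 7.85 in Namalwa, 7.79 and 7.64 in SU-DHL4, 6.84 and 5.96 in SU-DHL6, against 10.23, 9.32 and 9.83 in L363, U266 and LP1. Every PCM array was above every B-cell array, and the B-cell lines were spread as well. The difference of 2.45 (SE 0.46) did not pass (adjusted p 0.0601), and the other single-gene probe set of HSP90B1 gave only 0.59 with overlapping lines (adjusted p 0.301). Both are of the kind whose probes can bind other transcripts of similar sequence.

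Of the other genes of this system, SDF2L1, an ER protein that associates with BiP cochaperones, differed by 1.27 (SE 0.25, adjusted p 0.0684), with all PCM arrays above all B-cell arrays. MANF, an ER-resident protein secreted under ER stress, differed by 0.84 (SE 0.25, adjusted p 0.159) and was separated by line. CRELD2, an ER stress-induced secreted factor, differed by 0.80 (SE 0.36, adjusted p 0.292) and overlapped, since SU-DHL6 measured 10.58 and 10.04 against 10.20 to 10.51 in PCM lines; it was 0.51 without Namalwa. DNAJC3, a BiP cochaperone also known as an inhibitor of PERK, differed by 0.26 (SE 0.11, adjusted p 0.253).

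The disulfide formation group held 4 of the 6 calls. All 6 measured genes of the group were higher on average, and the median difference was 0.78. Of the 6, 5 had PCM lines above every B-cell line, against 17.5% of all genes. P4HB, the founding protein disulfide isomerase, measured 10.86 and 10.91 in Namalwa, 10.62 and 10.20 in SU-DHL4 and 11.15 and 11.04 in SU-DHL6. In L363, U266 and LP1 it measured 12.07, 11.86 and 12.01. The lowest PCM array was well above the highest B-cell array. P4HB was 2.27-fold higher (log2 difference 1.18, SE 0.19, adjusted p 0.0427), and its other probe set also passed (1.48, adjusted p 0.0139).

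PDIA6, a disulfide isomerase that acts with BiP and carries an ERSE match, measured 11.08 and 11.04 in Namalwa, 10.62 and 10.52 in SU-DHL4, 11.01 and 10.98 in SU-DHL6, and 11.86, 11.72 and 11.79 in L363, U266 and LP1. The groups did not overlap on any array. The difference of PDIA6 was 0.92 (SE 0.15, adjusted p 0.0423), and its 3 other probe sets passed as well, with differences of 0.96, 1.07 and 1.11. ERP29, an ER protein with a thioredoxin-type fold, measured 10.79 and 10.72 in Namalwa, 10.48 and 10.57 in SU-DHL4, 10.48 and 10.76 in SU-DHL6, and 11.44, 11.18 and 11.31 in L363, U266 and LP1. It was separated on all arrays and was 1.60-fold higher (0.68, SE 0.10, adjusted p 0.0402).

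ERO1A, the oxidase that recharges disulfide isomerases, measured 7.42 and 7.14 in Namalwa, 7.49 and 7.35 in SU-DHL4, 7.46 and 7.23 in SU-DHL6, and 7.87, 7.93 and 7.74 in L363, U266 and LP1. These groups were separated on all arrays too, by the smallest step of the 6: 0.50 (SE 0.09, adjusted p 0.0493). Without each line in turn, the adjusted p ran from 0.0532 to 0.157 for P4HB, from 0.0574 to 0.154 for PDIA6, from 0.0630 to 0.133 for ERP29 and from 0.0425 (without LP1) to 0.154 for ERO1A. PDIA4, another isomerase, differed by 0.88 (SE 0.23, adjusted p 0.123) and was separated. PDIA3, the isomerase that works with calnexin and calreticulin, was the exception of the group, at 0.07 (SE 0.11, adjusted p 0.734) with overlapping lines.

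The lectin chaperones, which hold newly glycosylated proteins, parted from each other. CANX, which encodes the membrane-bound calnexin, measured 11.79 and 11.89 in Namalwa, 11.46 and 11.55 in SU-DHL4, 11.75 and 11.54 in SU-DHL6, and 12.48, 12.40 and 12.13 in L363, U266 and LP1. PCM arrays were all higher, but the difference of 0.67 (SE 0.13) did not pass (adjusted p 0.0693). CALR, which encodes the soluble calreticulin, measured 10.85 and 10.92 in Namalwa, 11.38 and 11.36 in SU-DHL4, 11.49 and 11.38 in SU-DHL6, and 11.54, 11.58 and 10.76 in L363, U266 and LP1. LP1 had the lowest CALR level of all arrays and Namalwa the next, so the groups overlapped. The CALR difference was 0.07 (SE 0.27, adjusted p 0.913), and its sign turned in several alternative settings. Both genes carry an ERSE match.

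Of the prolyl isomerases, which turn proline bonds during folding, 0 of 3 passed and 2 were separated upwards, against 17.5% of all genes separated upwards. PPIB, which encodes cyclophilin B, measured 10.54 and 10.35 in Namalwa, 9.89 and 9.82 in SU-DHL4, 11.02 and 9.94 in SU-DHL6, and 11.61, 11.83 and 11.22 in L363, U266 and LP1. PCM arrays were all above the B-cell arrays, yet array 1 of SU-DHL6 came close to LP1. The difference of PPIB was 1.29 (SE 0.23, adjusted p 0.0575). FKBP2 differed by 0.85 (SE 0.24, adjusted p 0.145) and was separated, while FKBP11, an isomerase known from secretory cells, differed by 0.74 (SE 0.36, adjusted p 0.322) and overlapped, with LP1 at 10.28 against 11.73 in L363 and 11.11 in U266. The FKBP11 difference was 0.39 without L363 and 1.12 without LP1.

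Over the 19 folding genes of these 4 groups together, all differences were positive, as were 7168 of 11963 over all genes. Of the 19, 15 were separated upwards (78.9%, against 17.5% of all genes), and the median was 0.84. Of the 30 other measured folding genes, 8 were separated upwards (26.7%), 0 passed, and the median was 0.31. The sensors and transcription factors of the response were less uniform than the 19, and 0 of the 8 genes of the 3 branches passed the test. In the PERK branch, 0 of 3 genes had PCM lines above all B-cell lines and the median difference was -0.10. EIF2AK3, which encodes PERK, measured 8.40 and 8.39 in Namalwa, 8.23 and 8.18 in SU-DHL4, 8.68 and 8.88 in SU-DHL6, and 7.81, 8.21 and 9.94 in L363, U266 and LP1. LP1 was the highest and L363 the lowest of all arrays. The mean difference of EIF2AK3 was 0.19 (SE 0.57, adjusted p 0.870), and it was -0.45 without LP1.

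ATF4, the transcription factor whose translation PERK raises, was the gene with all PCM lines below the B-cell lines. It measured 11.29 and 11.53 in Namalwa, 11.35 and 11.22 in SU-DHL4, 11.41 and 11.55 in SU-DHL6, and 11.08, 11.03 and 11.08 in L363, U266 and LP1. The PCM arrays were all lower by a small step, and the difference of -0.33 (SE 0.08) did not pass (adjusted p 0.107). DDIT3, the stress factor CHOP downstream of ATF4, differed by -0.10 (SE 0.12, adjusted p 0.681).

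In the ATF6 branch, all 3 genes were separated upwards, against 17.5% of all genes, and 0 passed. Of the 6 other measured pathway genes listed under this branch, 0 were separated and the median difference was 0.22. ATF6, the sensor itself, measured 8.33 and 8.33 in Namalwa, 8.11 and 7.86 in SU-DHL4, 8.27 and 8.26 in SU-DHL6, and 8.96, 8.60 and 9.08 in L363, U266 and LP1. PCM arrays were all higher, with a difference of 0.69 (SE 0.16, adjusted p 0.0999), but the other probe set of ATF6 gave -0.18 with overlapping lines. WFS1, an ER membrane protein known to restrain ATF6, differed by 0.75 (SE 0.15, adjusted p 0.0697).

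CREB3L2, a membrane-bound factor of the same type as ATF6, separated the B-cell lines among themselves. It measured 8.49 and 8.41 in Namalwa, 5.62 and 5.85 in SU-DHL4, 5.63 and 5.77 in SU-DHL6, and 9.07, 8.79 and 9.49 in L363, U266 and LP1. Namalwa lay near the PCM lines and both SU-DHL lines far below. The PCM mean was 2.49 above the B-cell mean (SE 0.79, adjusted p 0.175), the largest difference of the 33 genes. Without Namalwa the CREB3L2 difference was 3.40 and passed (adjusted p 0.0149), and it did not pass without any other line.

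**Figure D3:**
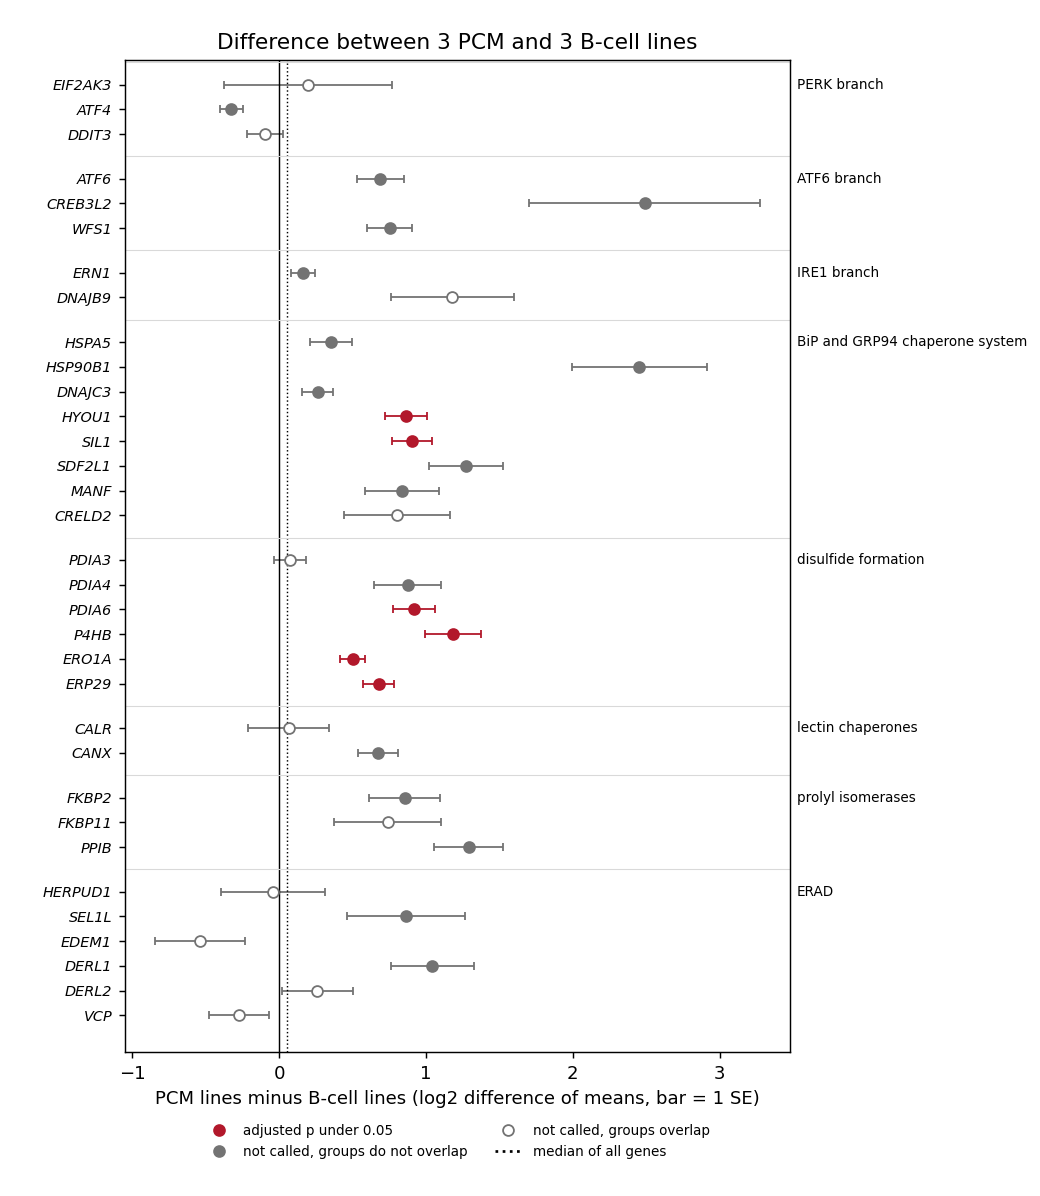
Difference of PCM from B-cell line means on the log2 scale for the 33 genes, grouped by branch, with bars of 1 SE and the genes that passed the test marked; filled points stand for genes whose lines did not overlap. The 6 marked genes are folding factors, and the PERK genes lie near or below 0.

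The IRE1 branch held ERN1, which encodes IRE1, and DNAJB9, a BiP cochaperone (ERdj4) that XBP1 is known to raise. ERN1 differed by only 0.16 (SE 0.08, adjusted p 0.340) and its arrays overlapped. DNAJB9 measured 8.73 and 8.64 in Namalwa, 7.72 and 7.56 in SU-DHL4, 7.02 and 7.65 in SU-DHL6, and 8.58, 9.52 and 9.10 in L363, U266 and LP1. Both Namalwa arrays lay above L363, and the difference was 1.18 (SE 0.42, adjusted p 0.212). The other probe set of DNAJB9 gave 0.19 with overlapping lines (adjusted p 0.557), and the mean of its probe sets 0.69.

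XBP1, the factor between these genes, was on the wider list of pathway genes. It measured 9.44 and 9.71 in Namalwa, 6.33 and 6.33 in SU-DHL4, 8.15 and 7.58 in SU-DHL6, and 11.35, 11.36 and 11.59 in L363, U266 and LP1. Every PCM array was above every B-cell array, and the order of the B-cell lines was Namalwa, SU-DHL6, SU-DHL4 with no overlap between them. The difference of XBP1 was 3.51 (SE 0.79), yet it did not pass (adjusted p 0.0922) beside a B-cell SD of 1.62. These arrays do not separate the spliced from the unspliced XBP1 messenger.

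The ERAD genes did not share a direction: 3 of 6 differences were positive, 0 genes passed, and the median was 0.11. DERL1, a channel component, differed by 1.04 (SE 0.28, adjusted p 0.134) with all PCM arrays above all B-cell arrays. SEL1L, the adaptor of the HRD1 ligase, measured 8.57 and 8.52 in Namalwa, 8.38 and 8.48 in SU-DHL4, 9.38 and 8.52 in SU-DHL6, and 9.05, 9.07 and 10.40 in L363, U266 and LP1. LP1 was the highest by over 1 unit, and array 1 of SU-DHL6 lay above L363 and U266. The difference of SEL1L was 0.86 (SE 0.40, adjusted p 0.305), and it was 0.42 without LP1.

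The other ERAD genes overlapped between the groups. HERPUD1, a stress-induced ERAD organiser with an ERSE-II match, differed by -0.04 (SE 0.35, adjusted p 0.961), and EDEM1, a mannosidase-like lectin of ERAD, by -0.54 (SE 0.31, adjusted p 0.381) or -0.19 without SU-DHL6. VCP, the ATPase that extracts ERAD substrates, differed by -0.27 (SE 0.21, adjusted p 0.487), which became -0.0847 without SU-DHL6 and -0.44 without SU-DHL4. DERL2 differed by 0.26 (SE 0.24, adjusted p 0.568), with a range of 0.0515 (without LP1) to 0.43 (without L363). The highest line was SU-DHL6 for HERPUD1, EDEM1 and VCP.

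The 9 genes with an ERSE or ERSE-II match had a median difference of 0.80, with 2 calls and 6 genes separated upwards. The 22 genes with a promoter window and no match had a median of 0.71, with 4 calls and 14 genes separated upwards. Of the 84 other genes of the pathway, 66 were measured. Among the 66, 1 passed as higher (1.52%, against 1.35% of all genes) and 0 passed as lower (against 1.95% of all genes). Upwards, 17 were separated (25.8%, against 17.5% of all genes), and downwards 2 were (3.03%, against 11.8%). The median difference over the 66 was 0.23. At an unadjusted p under 0.05, 17 were higher and 3 lower, beside the same 10.6% and 11% of all genes. The gene that passed was OS9, a lectin that hands glycoproteins to ERAD, at 0.74 (SE 0.12, adjusted p 0.0456); it did not pass with L363 and U266 averaged (adjusted p 0.105).

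The authors' deposited table, which treats the 9 arrays as independent, gave 14 of the 33 genes as higher and 1, ATF4 (adjusted p 0.0468), as lower at the same threshold. In the authors' deposited table the 8 further higher genes were ATF6, WFS1, HSP90B1, SDF2L1, CANX, FKBP2, PPIB and DERL1. That test counts duplicate arrays of 1 line as separate samples.

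The PCM lines were then set against the B-cell mean one by one. L363, U266 and LP1 each lay above all B-cell lines for 24 of the 33 genes, against 44.1%, 37.5% and 31% of all genes. They lay below all B-cell lines for 3, 2 and 5 of the 33 genes, against 25.3%, 22% and 28.8% of all genes. The median difference was 0.74 in L363, 0.63 in U266 and 0.67 in LP1, beside 0.07, 0.04 and 0.01 over all genes. By group, the folding genes had medians of 0.98 in L363, 0.81 in U266 and 0.61 in LP1. The prolyl isomerases stood at 1.35, 1.16 and 0.35, and the ERAD genes at -0.23, 0.10 and 0.50. With 1 array a line, these differences between PCM lines have no replicate check.

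No gene differed by over 2-fold between L363 and U266, the nearly alike pair. LP1 was over 2-fold above their mean for EIF2AK3 (1.93 on the log2 scale) and SEL1L (1.34), and over 2-fold below it for FKBP11 (-1.15). For SEL1L, 2 of its 3 other probe sets also had LP1 as the highest line, at 8.80 and 8.83 against 7.41 and 7.54 in L363. CALR (-0.80), FKBP2 (-0.75) and SDF2L1 (-0.61) were also lower in LP1, and DERL2 (0.62) was higher. In all, 15 genes were higher and 18 lower in LP1 than in the mean of the other PCM lines.

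**Figure D4:**
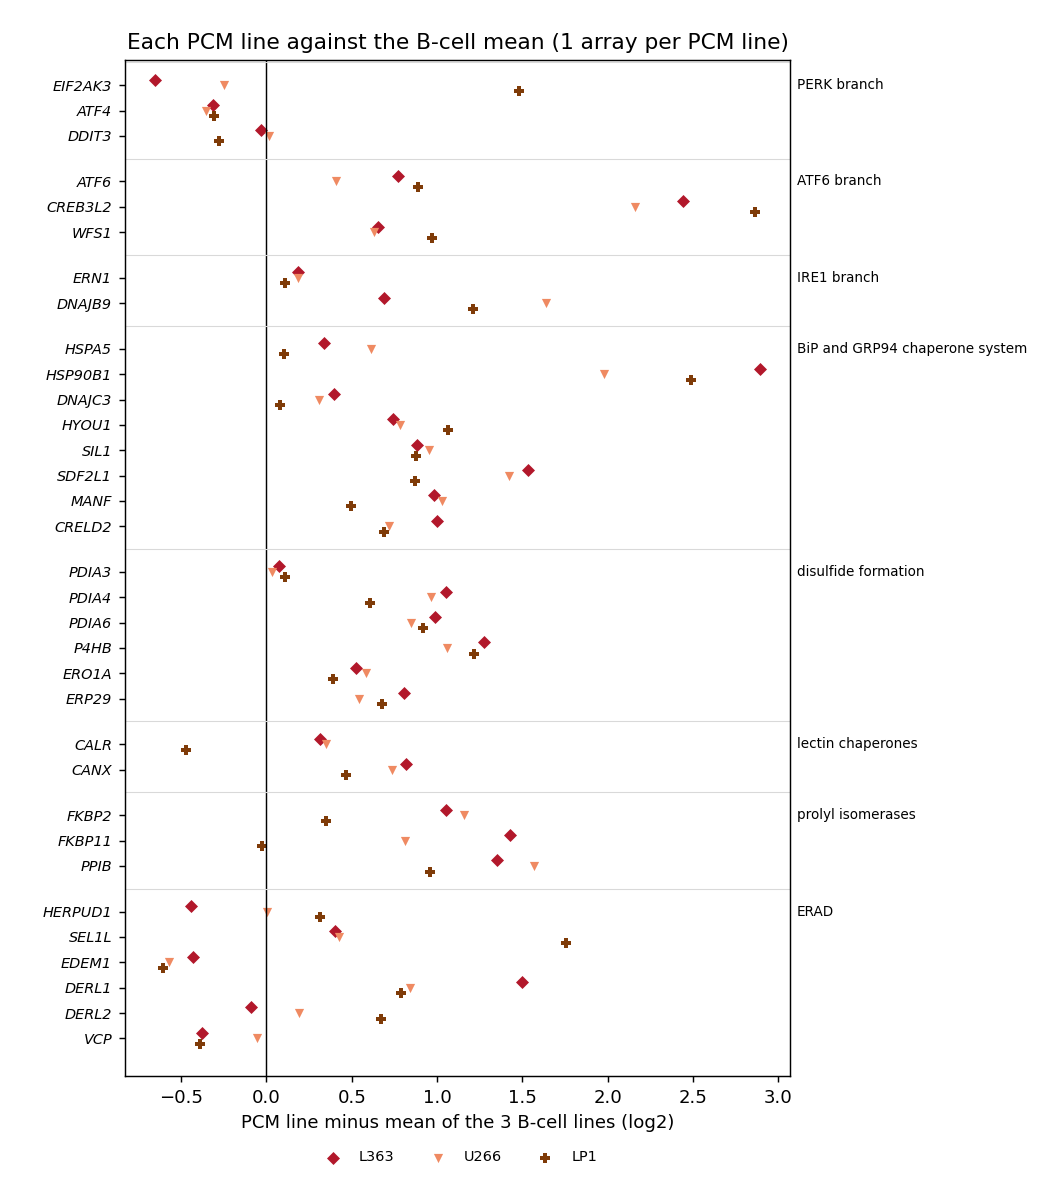
Log2 level of each gene in L363, U266 and LP1 minus the mean of the 3 B-cell lines, 1 point per line and gene. No gene differs by over 2-fold between L363 and U266, while LP1 stands apart from both for EIF2AK3, SEL1L and FKBP11.

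The B-cell lines were compared with each other from their duplicate arrays, which allows a test of the spread between arrays. SU-DHL6 had more RNA of the ERAD genes HERPUD1 and EDEM1 than SU-DHL4. The PERK gene EIF2AK3 was also higher but held less firmly, and DERL1 was higher at 1 of its 2 probe sets. Of 11 alternative settings, HERPUD1 passed in 11, EDEM1 in 9, DERL1 in 6 and EIF2AK3 in 5. In that comparison 7 of the 33 genes passed as higher and 1 as lower, against 4.66% and 4.95% of all genes. All 6 ERAD differences were positive, as were 7645 of 11963 over all genes. Of the 6, 3 passed, and the median was 0.75. Among the 16 other measured ERAD genes, 11 differences were positive, with a median of 0.27. Of these 16, 2 passed as higher and 1 as lower. Nothing in the labels says that duplicate arrays came from separate cultures, so these p-values measure only the spread between these arrays.

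HERPUD1 measured 9.55 and 9.76 in SU-DHL4 and 10.81 and 10.92 in SU-DHL6, a difference of 1.21 (SE 0.11, limma adjusted p 0.00394). EDEM1 measured 8.04 and 7.86 in SU-DHL4 and 8.98 and 9.29 in SU-DHL6 (1.19, SE 0.17, adjusted p 0.0144). Neither gene overlapped between the lines, and both arrays of SU-DHL6 were high. DERL1 was higher by 0.80 (SE 0.15, adjusted p 0.0373), EIF2AK3 by 0.58 (SE 0.10, adjusted p 0.0270) and CRELD2 by 1.02 (SE 0.19, adjusted p 0.0318). At its other probe set, DERL1 measured 7.72 in SU-DHL4 and 7.73 in SU-DHL6. PDIA6 (0.42, adjusted p 0.0433) and FKBP2 (0.40, adjusted p 0.0487) were the remaining higher genes.

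HSP90B1 was the gene that passed as lower in SU-DHL6, by -1.31 (SE 0.28, adjusted p 0.0480), with arrays at 6.84 and 5.96 against 7.79 and 7.64. Its other probe set measured 7.19 in SU-DHL6 and 7.41 in SU-DHL4, a smaller step. With any 1 array of Namalwa or SU-DHL4 left out, 1 or 2 genes passed as higher and 0 as lower; without array 1 of SU-DHL6 the counts were 4 and 2, and without array 2 they were 8 and 1. HERPUD1 passed in every one of these tests, with an adjusted p of at most 0.0376. The SU-DHL6 duplicates differed for folding genes: array 1 was higher than array 2 for 17 of 19, against 45.3% of all genes. The median gap for the folding genes was 0.29.

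Namalwa was set against the mean of both SU-DHL lines; the Namalwa arrays are from the earlier data set, so line and data set cannot be told apart here. In Namalwa 2 genes passed as higher and 3 as lower, against 5.17% and 4.99% of all genes. CREB3L2 was 2.73 higher (SE 0.10, adjusted p 0.000459) and DNAJB9, the XBP1 target, 1.20 higher (SE 0.19, adjusted p 0.0182). At the other probe set of DNAJB9 the step was smaller, with 4.84 in Namalwa, 4.44 in SU-DHL4 and 4.47 in SU-DHL6. XBP1 itself was 2.48 higher in Namalwa (adjusted p 0.00244) and 1.53 higher in SU-DHL6 than in SU-DHL4 (adjusted p 0.0125), whereas DNAJB9 did not pass in the latter comparison (-0.30, adjusted p 0.481).

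CRELD2 (-0.87, SE 0.16, adjusted p 0.0322), CALR (-0.52, SE 0.08, adjusted p 0.0167) and DERL2 (-0.42, SE 0.08, adjusted p 0.0340) were the genes that passed as lower in Namalwa. The other probe sets of CALR were split. In Namalwa, SU-DHL4 and SU-DHL6, 1 measured 8.66, 9.48 and 9.04, with Namalwa lowest. Another measured 10.40, 10.69 and 10.35, with Namalwa above SU-DHL6. With any 1 array of Namalwa or SU-DHL4 left out, only CREB3L2 passed, in each of the 4 tests. Without array 1 of SU-DHL6, 6 genes passed as higher and 4 as lower, and without its array 2 the counts were 4 and 3. Across the 6 lines, SU-DHL4 had the lowest level of the 33 genes most often, for 15 of them. SU-DHL4 and Namalwa were each the highest for 0. The same count was not made over all genes.

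**Figure D5:**
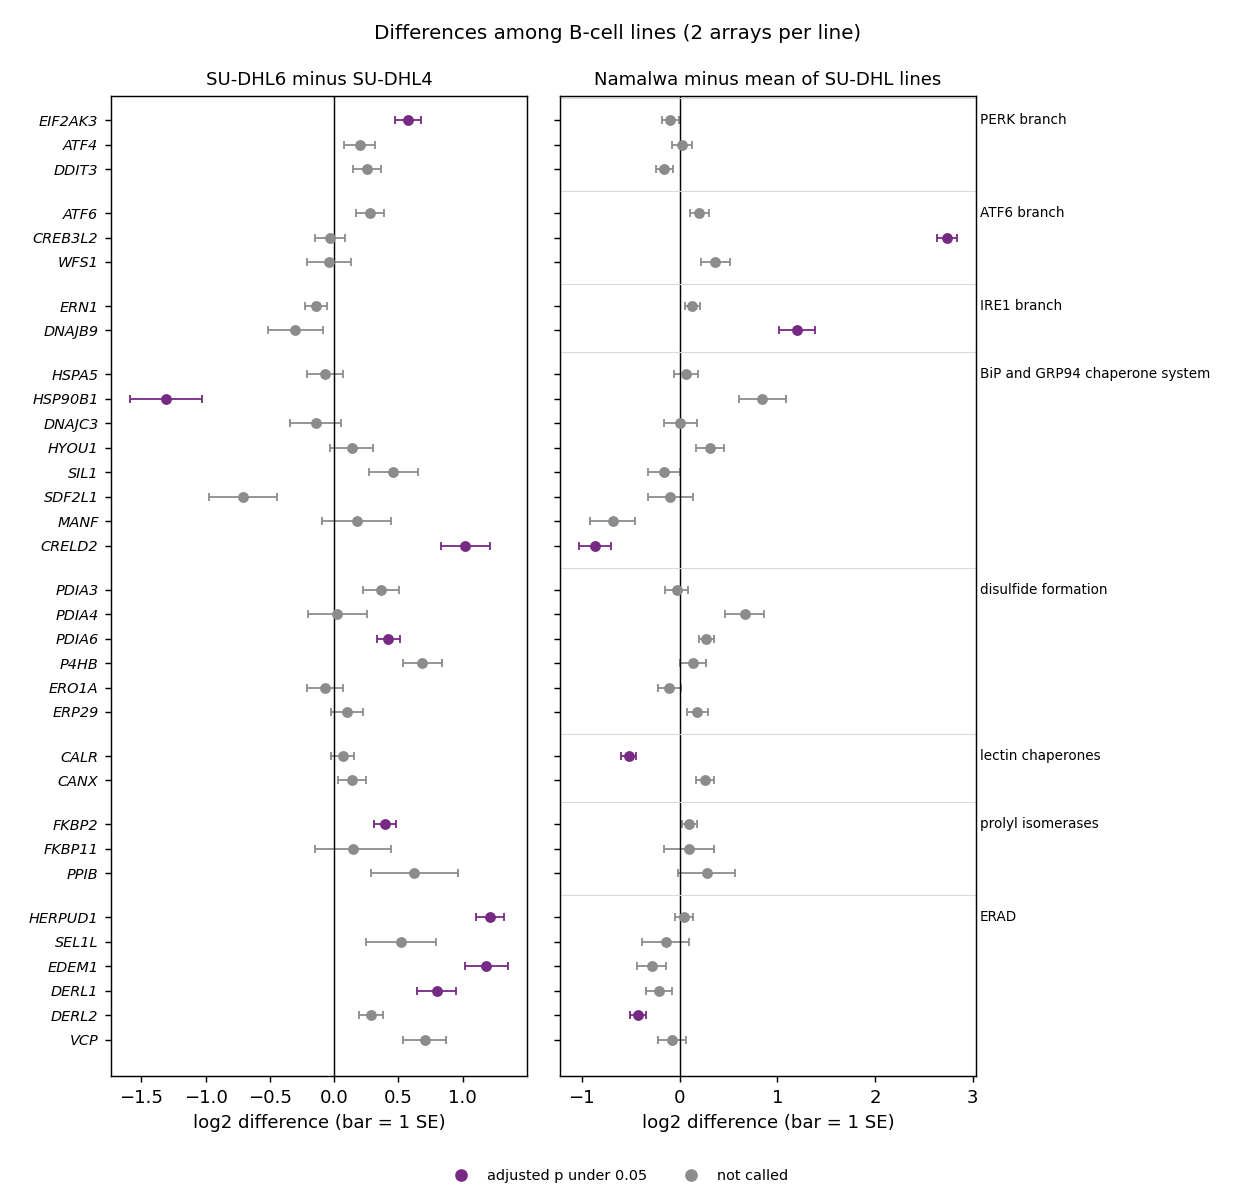
Log2 differences among B-cell lines for the 33 genes, SU-DHL6 minus SU-DHL4 and Namalwa minus the mean of both SU-DHL lines, with bars of 1 SE and genes that passed the test marked. HERPUD1 and EDEM1 stand out upwards in SU-DHL6, and CREB3L2 in Namalwa.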

How the data were processed

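RNA of 6 lines was hybridised to 9 Affymetrix GeneChip arrays. The deposited values are log2 expression per probe set, normalised by the authors with RMA per the submitters' processing notes. Whether the earlier Namalwa arrays were normalised together with the rest is not given in the sources used here. The authors' deposited table also holds p-values and differences; its p-values were those of limma on 9 arrays, and its differences run B-cell minus PCM, so their sign was turned.

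From the deposited log2 values, 68 control probe sets were left out and 22215 were tested. Genes were named from the platform annotation: 19065 probe sets had 1 symbol, 1043 several and 2107 none. A gene was read at its single-symbol probe set with the highest mean over the 6 lines. Differences were fitted with limma 3.58.1 in R 4.3.3 (lmFit, eBayes). Duplicates were averaged for PCM against B-cell lines (4 residual degrees of freedom), and the B-cell lines were compared over their 6 arrays (3 residual degrees of freedom). Tests were two-sided with Benjamini-Hochberg adjustment over all probe sets, called at 0.05, and background shares were counted over 11963 genes. The number of arrays limits the precision. The scripts were tested on simulated data.

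Every one of the 33 genes is named, with their other probe sets where they bear on a result; of the wider list, those called in PCM lines and XBP1. The genes and lists were chosen with earlier results of these data known. Alternatives covered the unit of replication, normalization, the probe set, filters and left-out lines or arrays.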

Additional observations from a re-analysis of the deposited data

How the results depend on the processing

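The number of the 33 genes called higher in PCM lines, 6 in the reported test, was 13 with 9 arrays and line as a random block, 14 with each array as a replicate and 14 in the authors' deposited table. It was 10 after centring on the 75th percentile, 3 and 1 with array 1 or array 2 alone of each B-cell line, and 2 with trend and robust eBayes. It was 0 with L363 and U266 averaged, 0 at an adjusted p under 0.01, and 0 to 5 leaving out 1 line. The count called lower, 0, became 1 (ATF4) with each array as a replicate and 1 in the authors' deposited table. The median difference lay between 0.62 and 0.83 in every setting run. Centring moved the median of all probe sets from 0.05 to 0.14.

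Signs turned for genes near 0. HERPUD1 was 0.0491 with L363 and U266 averaged, 0.0219 with array 1 alone, 0.0541 after centring, 0.147 after a second quantile normalization, and -0.35 to 0.26 leaving out 1 line. CALR was -0.0682 with L363 and U266 averaged, -0.0332 as the mean of its probe sets, -0.0448 without _x_at and _s_at probe sets, and -0.11 to 0.33 leaving out 1 line. Leaving out 1 line, EIF2AK3 ran from -0.45 to 0.62 and PDIA3 from -0.0136 to 0.168. After a second quantile normalization ATF4 was -0.21 and VCP -0.0888. The cause was not tested.

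Leaving out 1 array, SU-DHL6 against SU-DHL4 gave 1 to 8 genes higher and 0 to 2 lower; Namalwa against the SU-DHL lines gave 1 to 6 higher and 0 to 4 lower, and 1 higher among probe sets above the median level, where CREB3L2 was no longer tested. With the replicate block, the counts were 5 and 1 for SU-DHL6 against SU-DHL4, and 2 and 2 for Namalwa. Same-numbered arrays did not deviate together in every pair of lines (correlations of -0.444, -0.15 and 0.199), so the numbers were not taken to pair samples. For PCM lines no paired analysis was possible because they have 1 array each. Each PCM line has a single array, and each class has 3 lines.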

Other observations

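The duplicate arrays of SU-DHL6 differed mostly in 1 direction for the folding genes, with array 1 higher for 17 of 19 (89.5%). Array 1 was higher for 45.5% of the other pathway genes and 45.3% of all genes. PPIB measured 11.02 on array 1 and 9.94 on array 2, FKBP11 10.82 and 9.87, HSP90B1 6.84 and 5.96, MANF 10.50 and 9.65, and SDF2L1 8.91 and 8.08. Array 1 was over 0.5 higher for 7 of the 19 folding genes (36.8%), against 3 of the 66 other pathway genes (4.55%) and 4.15% of all genes. In Namalwa and SU-DHL4, 0 of the 19 differed by that much upwards. This spread enters the B-cell comparisons through the shared error, and its cause was not tested.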
